A study of Mus musculus with 4 samples.

Results

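The data described here are those of 10 genes of microbial recognition, taken by name: the Toll-like receptor genes Tlr1, Tlr2, Tlr4, Tlr6, Tlr7, Tlr8, Tlr9 and Tlr13 and the lipopolysaccharide (LPS) co-receptor genes Cd14 and Ly96. All 10 were found among the 54532 genes of the deposited tables, and all 10 passed the filter on low counts. The RNA came from PMN-MDSC (polymorphonuclear myeloid-derived suppressor cells), which resemble neutrophils and dampen T cell responses, purified from spleens of newborn C57BL/6 mice. Treatment lasted 5 days, with the adenosine receptor agonist NECA, an analogue of adenosine that resists breakdown, or with DMSO as the control. Each treatment had 2 libraries, numbered 1 and 2, and cells of the same strain and source made up both groups. The labels do not say whether the replicates are separate animals, pools of pups or separate cultures, so p-values measure only the spread between these libraries, which may be technical.

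Toll-like receptors are membrane proteins whose horseshoe-shaped repeats bind microbial products and whose intracellular TIR domain recruits the adaptors MyD88 and TRIF. Tlr4 senses LPS together with Ly96 (MD-2), which holds the lipid, and Cd14, which hands LPS over. Tlr2 senses bacterial lipopeptides as a dimer with Tlr1 or Tlr6, and Tlr7, Tlr8, Tlr9 and Tlr13 sense nucleic acids inside endosomes. In newborn mice, signalling through Tlr4 in the gut is a known contributor to necrotizing enterocolitis, the disease named in the title of the series.

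With NECA, 1 of the 10 genes, Cd14, was lower than with DMSO, 0 were higher and 9 did not pass the test. At an unadjusted p under 0.05, edgeR had 1 higher (Tlr13) and 2 lower (Cd14 and Tlr1). DESeq2, at an adjusted p under 0.05, called 0 higher and 1 lower (Cd14). Cd14 had 10.8 and 11.9 CPM (counts scaled to library size) in the NECA libraries, against 17.3 and 21.6 CPM in the DMSO libraries. Every one of the 8 Toll-like receptor genes missed the threshold, among them Tlr4 itself, with values that ran from 0.25 for Tlr13 to -1.20 for Tlr1 as log2 fold change. Of the 13083 genes tested with edgeR, 1.33% were called in either direction, 0.352% higher and 0.978% lower, at an adjusted p under 0.05. The median log2 fold change was 0.03 over the 10 genes and -0.01 over all genes tested. In 6 of the 10 the NECA and DMSO libraries did not overlap, 3 with NECA lower and 3 with NECA higher. Over all genes tested that was so for 46.7%, with NECA lower in 24.3% and higher in 22.4%.

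**Figure D1:**
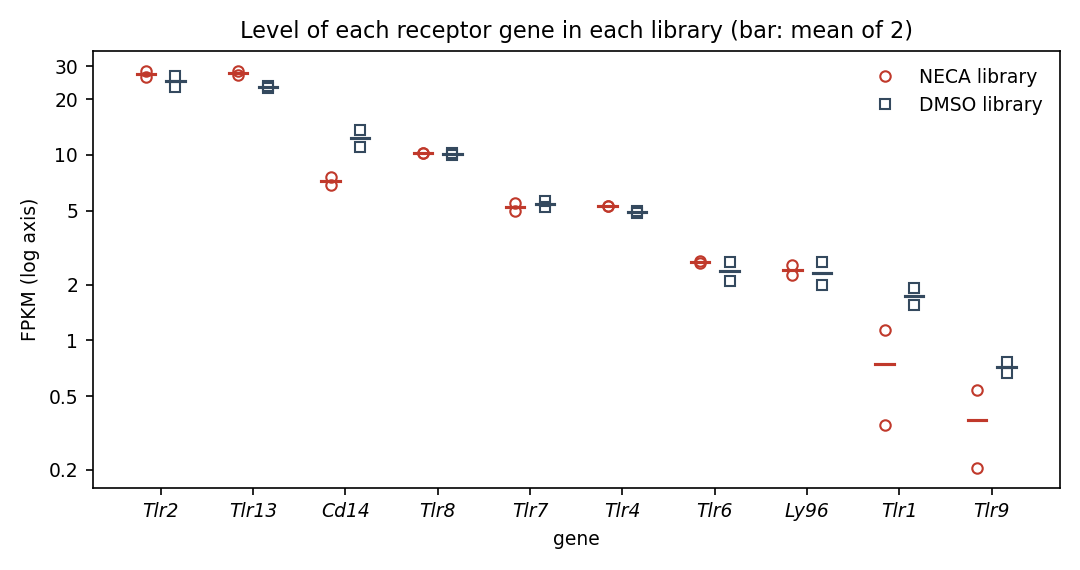
FPKM (fragment counts scaled to gene length and library size, log axis) of the 10 genes in each library, ordered by their DMSO mean, with NECA libraries as circles left of DMSO libraries as squares and a bar at each mean of 2. The 2 Cd14 circles, at 6.89 and 7.58 FPKM, lie below both squares, while the circles and squares of Tlr8 lie within 9.95 to 10.3 FPKM.

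Total counts ran from 15864120 to 18712625 per library, and 18220 to 18842 genes had at least 1 count. The defining neutrophil markers were abundant, with a sum over 14 genes of 129444 and 130680 CPM with NECA and 116529 and 122024 CPM with DMSO. Markers of other cells were present beside them. The 24 macrophage and monocyte markers summed to 916 and 835 CPM with NECA, against 1414 and 1308 CPM with DMSO, and none of them was at 0 in any library. The largest part of these sums was the iron exporter Slc40a1, with 500 and 510 CPM with NECA, against 539 and 549 CPM with DMSO. The 12 B cell markers summed to 87.5 and 14.3 CPM with NECA, against 159 and 169 CPM with DMSO, and 1 of them (Ebf1, in NECA replicate 2) was at 0. The 9 erythroid markers, whose globin genes share sequence, summed to 340 and 19.7 CPM with NECA, against 1180 and 485 CPM with DMSO, and the 10 conventional dendritic cell markers to 35.04 and 15.6 CPM with NECA, against 55.2 and 44.8 CPM with DMSO. In these 3 lists NECA replicate 2 stood apart from NECA replicate 1. The 10 T and NK cell markers summed to 18.1 and 19.0 CPM with NECA, against 29.7 and 31.4 CPM with DMSO, and the 9 basophil, mast cell and eosinophil markers to 48.2 and 39.0 CPM with NECA, against 66.4 and 65.01 CPM with DMSO. In a bulk library, fewer cells of a type and less RNA per cell cannot be told apart.

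The sequences upstream of 4 genes are printed because these genes mark the ends of the range of levels: Tlr13 and Tlr2 had the highest FPKM of the 10 and Tlr1 and Tlr9 the lowest. Each is the 250 bases before the transcription start given by RefSeq on GRCm38.p6, 5′ to 3′ on the gene's own strand. Capitals mark matches, on either strand, to GAGGAA (the core bound by PU.1 and other ETS factors of myeloid cells), TTGCNNAA (C/EBP), TGANTCA (AP-1), TGACGTCA (the cAMP response element) and the NF-kB consensus.
Tlr13, chrX:106143025-106143274, plus strand: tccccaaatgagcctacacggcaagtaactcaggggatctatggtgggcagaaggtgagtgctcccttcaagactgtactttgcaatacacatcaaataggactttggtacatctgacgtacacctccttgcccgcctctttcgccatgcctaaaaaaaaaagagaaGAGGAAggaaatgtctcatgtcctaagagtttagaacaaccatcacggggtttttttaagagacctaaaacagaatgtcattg
Tlr2, chr3:83841609-83841858, minus strand: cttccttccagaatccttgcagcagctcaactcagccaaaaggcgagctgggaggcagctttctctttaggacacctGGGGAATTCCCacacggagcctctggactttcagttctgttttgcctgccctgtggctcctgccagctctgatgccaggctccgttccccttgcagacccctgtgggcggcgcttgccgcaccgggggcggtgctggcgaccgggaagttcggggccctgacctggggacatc
Tlr9, chr9:106222348-106222597, plus strand: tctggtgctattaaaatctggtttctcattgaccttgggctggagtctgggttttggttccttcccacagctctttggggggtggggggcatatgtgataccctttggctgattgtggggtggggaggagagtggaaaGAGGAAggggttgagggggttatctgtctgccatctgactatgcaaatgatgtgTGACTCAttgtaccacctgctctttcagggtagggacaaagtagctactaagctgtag
Tlr1, chr5:64933559-64933808, minus strand: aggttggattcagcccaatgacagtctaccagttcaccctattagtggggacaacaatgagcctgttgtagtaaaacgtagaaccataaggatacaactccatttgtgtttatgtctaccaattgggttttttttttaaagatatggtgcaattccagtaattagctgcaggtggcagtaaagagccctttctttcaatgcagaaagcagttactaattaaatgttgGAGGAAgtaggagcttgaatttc
The printed windows of Tlr13, Tlr9 and Tlr1 each held 1 GAGGAA, a motif present in 23.3% of all 32851 RefSeq windows of this length. The Tlr9 window also held 1 AP-1 motif (6.75% of windows) and the Tlr2 window 2 overlapping NF-kB matches (7.25% of windows). None of the 4 held the cAMP response element (1.55% of windows) or the C/EBP motif (9.56% of windows). A match describes these letters and does not show that a factor binds. RefSeq windows of 6 of the 10 genes were used. Besides those printed, a second RefSeq window of Tlr1 held 0 of the motifs, Tlr8 had 1 GAGGAA and 1 C/EBP motif, and 1 of the 2 windows of Tlr6 had a C/EBP motif. No window of Tlr4, Tlr7, Ly96 or Cd14 is shown.

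Within each group the levels per length, in FPKM, formed the same broad order. With NECA, Tlr13 (27.7 ± 1.14 FPKM) and Tlr2 (27.3 ± 1.26 FPKM) came first and their ranges overlapped (SD, n = 2 each, as for all means here). Tlr8 (10.3 ± 0.0142 FPKM), Cd14 (7.24 ± 0.490 FPKM), Tlr4 (5.30 ± 0.0233 FPKM) and Tlr7 (5.24 ± 0.350 FPKM) came next, and of these neighbours only Tlr4 and Tlr7 overlapped. Tlr6 (2.65 ± 0.0547 FPKM), Ly96 (2.40 ± 0.196 FPKM), Tlr1 (0.741 ± 0.555 FPKM) and Tlr9 (0.371 ± 0.235 FPKM) closed the list, with overlap between the last 2. With DMSO, Tlr2 (24.9 ± 2.23 FPKM) and Tlr13 (23.2 ± 0.408 FPKM) were again first with overlapping ranges. There Cd14 (12.3 ± 1.93 FPKM) stood above Tlr8 (10.1 ± 0.179 FPKM), so Cd14 held rank 4 with NECA and rank 3 with DMSO. The pair Tlr6 (2.36 ± 0.395 FPKM) and Ly96 (2.32 ± 0.462 FPKM) overlapped, and Tlr1 (1.73 ± 0.263 FPKM) and Tlr9 (0.717 ± 0.0668 FPKM) were lowest. Tlr13 and Tlr2 together held 68.9% and 69.4% of the summed FPKM of the 8 receptor genes with NECA, against 65.4% and 65.8% with DMSO.

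The LPS receptor was followed through its 3 parts. Cd14 (ENSMUSG00000051439, on chromosome 18), a lipid-anchored protein without a TIR domain that macrophages and neutrophils carry, averaged 11.4 ± 0.757 CPM with NECA and 19.5 ± 3.06 CPM with DMSO. Both NECA libraries lay below both DMSO libraries. Its log2 fold change was -0.78 (SE 0.16), a level 1.71-fold lower with NECA, at an adjusted p of 0.0397 by edgeR's quasi-likelihood test with Benjamini-Hochberg adjustment. By p it ranked 139 of the 13083 genes tested. The 2 DMSO libraries differed more than the NECA ones, and the call depended on both: without DMSO replicate 1 the adjusted p was 0.0582 (log2 fold change -0.92), and without DMSO replicate 2 it was 0.218 (-0.60). Without NECA replicate 1 or 2, Cd14 still passed, at -0.71 (adjusted p = 0.0114) and -0.85 (adjusted p = 0.00315).

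Cd14 fell beside the markers of macrophages and monocytes, of which 16 of 24 were lower, 0 were higher and 8 did not pass, with a median log2 fold change of -1.44. Among the lower ones were Vcam1, an adhesion molecule of splenic macrophages (-1.73), the phagocytic receptor kinase Axl (-1.49) and C1qc, a subunit of complement C1q (-1.81). Hmox1, which degrades heme, was also lower (-1.50, adjusted p = 0.000344). The 2 most abundant of the markers did not pass: the iron exporter Slc40a1 stood at -0.11 (adjusted p = 0.310) and the growth factor receptor Csf1r, whose counts are uncertain beside Hmgxb3, at -0.35 (adjusted p = 0.0964). Ccr2 (-0.99, adjusted p = 0.366), Cx3cr1 (-0.56, adjusted p = 0.426) and F13a1 (-0.09, adjusted p = 0.970) did not pass either (edgeR). The part of macrophages and monocytes in the lower Cd14 level was not tested. Of the 14 neutrophil markers 2 were higher, 0 were lower and 12 did not pass, with a median log2 fold change of 0.16, which was 0.09 with library size alone as the scale. All 14 were above 0 with TMM scaling, and 12 were higher and 0 lower at an unadjusted p under 0.05 in edgeR. DESeq2, at an adjusted p under 0.05, called 5 higher and 0 lower. The granule protein Ngp stood at 0.02 (adjusted p = 0.758) and at -0.05 with library size alone. The 2 that passed in edgeR were the proteases Mmp9 (0.23, adjusted p = 0.0126) and Mmp8 (0.23, adjusted p = 0.0254). With that scale neither of these 2 passed (adjusted p = 0.0556 and 0.0837). Without DMSO replicate 1 they stood at adjusted p = 0.0754 and 0.157, and leaving out DMSO replicate 2 put Mmp9 at adjusted p = 0.0520.

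**Figure D2:**
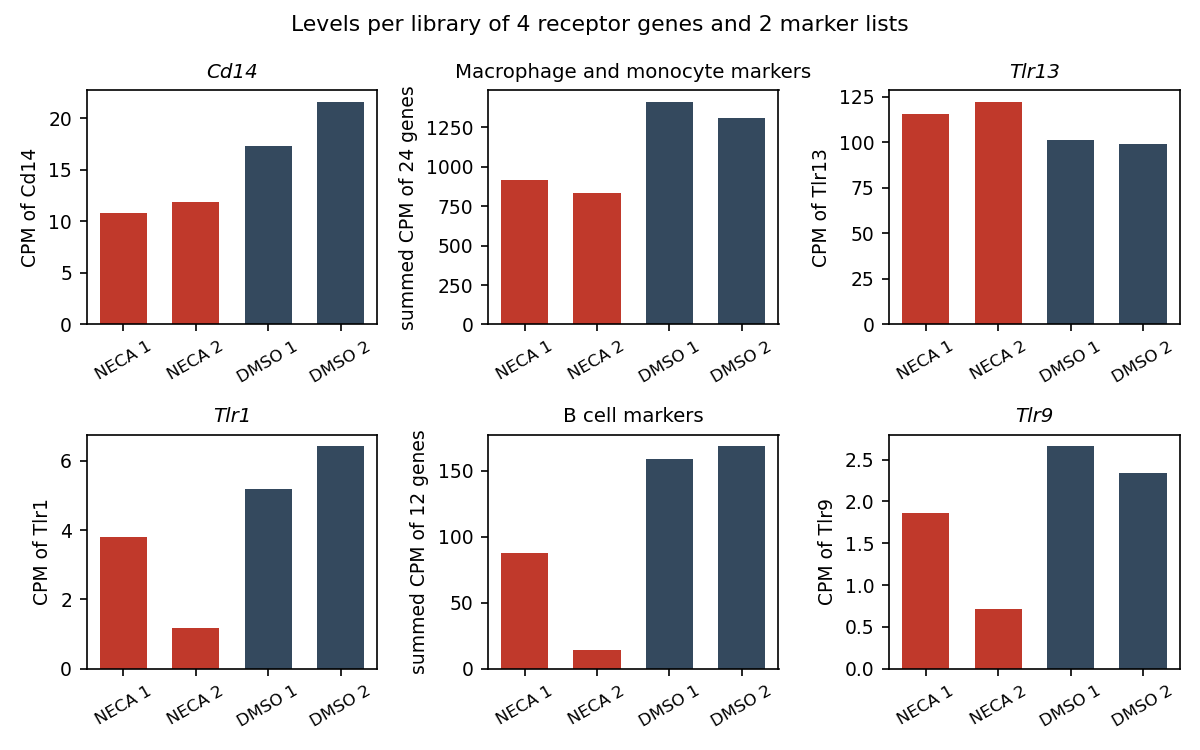
CPM per library (bars, axes from 0) of Cd14, Tlr13, Tlr1 and Tlr9, and the summed CPM of 24 macrophage and monocyte markers and of 12 B cell markers, with NECA libraries left of DMSO libraries. All but Tlr13 are lower in both NECA libraries than in either DMSO library. Tlr1, Tlr9 and the sums of the macrophage and monocyte and of the B cell markers are lowest in NECA replicate 2, at 1.16, 0.711, 835 and 14.3 CPM.

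Tlr4 (ENSMUSG00000039005, chromosome 4, 66827584 to 66930284, GRCm38), the signalling chain of the LPS receptor, had 29.3 and 29.5 CPM with NECA, against 27.7 and 27.0 CPM with DMSO. The NECA libraries lay just above the DMSO libraries. Its log2 fold change of 0.10 (SE 0.10) did not pass (adjusted p = 0.703, edgeR), and the 95% interval of the fold ran from 0.921 to 1.25. Ly96 (ENSMUSG00000025779, chromosome 1, 16688051 to 16709611), the soluble partner without which Tlr4 does not bind LPS, rested on 42 and 40 counts with NECA and 39 and 51 counts with DMSO. That gave 2.31 and 2.58 CPM with NECA, against 2.04 and 2.71 CPM with DMSO, so the groups overlapped. At this depth the interval of its fold was wide, from 0.605 to 1.75 (log2 fold change 0.04, adjusted p = 0.976, edgeR). Within each library, Cd14 had 1.30 and 1.43 times the FPKM of Tlr4 with NECA, against 2.20 and 2.83 times with DMSO. Ly96 had 0.428 and 0.477 times the FPKM of Tlr4 with NECA, against 0.400 and 0.546 times with DMSO. The first ratio was lower in both NECA libraries, and the second overlapped.

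Of the lipopeptide receptor genes Tlr2, Tlr6 and Tlr1, none passed, and differences between their changes were not tested. Tlr2 (ENSMUSG00000027995, chromosome 3, 83836272 to 83841767), the chain common to both dimers, had 84.8 and 79.3 CPM with NECA, against 70.5 and 80.1 CPM with DMSO. The groups overlapped, and its value of 0.12 (SE 0.08) did not pass (adjusted p = 0.514, edgeR), with an interval of the fold from 0.964 to 1.23. Tlr6 (ENSMUSG00000051498, chromosome 5, 64952031 to 64960097), which pairs with Tlr2 for diacylated lipopeptides, had 10.0 and 9.69 CPM with NECA, against 7.79 and 9.88 CPM with DMSO. These groups overlapped as well (0.16, SE 0.19, adjusted p = 0.769, edgeR; fold interval 0.834 to 1.49). Tlr1 (ENSMUSG00000044827, chromosome 5, 64924679 to 64933563), its neighbour, which pairs with Tlr2 for triacylated lipopeptides, had 3.79 and 1.16 CPM with NECA, against 5.17 and 6.43 CPM with DMSO. Both NECA libraries were below both DMSO libraries, and NECA replicate 2 was far below replicate 1.

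The lowest value among the 10 genes was that of Tlr1, with a log2 fold change of -1.20 (SE 0.41), but it did not pass over all genes (adjusted p = 0.172, edgeR). Behind it stood 69 and 18 counts with NECA and 99 and 121 counts with DMSO. The exact Poisson 95% intervals, which cover counting error only, were 2.95 to 4.80 CPM and 0.689 to 1.84 CPM for the NECA libraries, and 4.20 to 6.30 CPM and 5.33 to 7.68 CPM for the DMSO libraries. The intervals of the NECA replicates did not meet, so these 2 libraries differed by more than counting error. Without NECA replicate 1 the value was -2.31, and without NECA replicate 2 it was -0.61. In FPKM, Tlr1 had 0.422 and 0.134 times the level of Tlr6 with NECA, against 0.740 and 0.725 times with DMSO.

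Counts of Tlr1 and Tlr6 carry an uncertainty of their own, because part of their coding sequence is nearly the same. Of the stretches of 50 bases in annotated Tlr1 transcripts, 13.6% also occur in Tlr6, and 12.3% of those of Tlr6 occur in Tlr1. The longest run without a difference is 229 bases, and it is printed with 30 bases on either side. A read pair with both reads inside this run cannot be given to 1 of the 2 genes. Positions run from base 1438 to 1726 of the Tlr1 coding sequence and from 1477 to 1765 of that of Tlr6 (GENCODE M21, GRCm38, chromosome 5), and capitals mark the 2 positions that differ.
Tlr1: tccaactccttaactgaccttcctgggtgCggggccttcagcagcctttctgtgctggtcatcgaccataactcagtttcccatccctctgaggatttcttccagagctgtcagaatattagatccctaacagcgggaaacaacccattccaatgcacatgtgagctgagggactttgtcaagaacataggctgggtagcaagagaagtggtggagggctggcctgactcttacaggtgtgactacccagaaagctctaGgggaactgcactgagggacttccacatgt
Tlr6: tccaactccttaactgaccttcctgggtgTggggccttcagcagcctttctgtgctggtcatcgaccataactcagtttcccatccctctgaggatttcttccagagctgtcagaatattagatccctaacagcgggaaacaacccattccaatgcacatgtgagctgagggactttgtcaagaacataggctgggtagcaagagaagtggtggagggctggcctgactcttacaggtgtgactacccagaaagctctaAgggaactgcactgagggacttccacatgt
How the counting treated such reads is not given in the sources used here. Summed as 1 feature, Tlr1 and Tlr6 had 13.8 and 10.9 CPM with NECA, against 12.96 and 16.3 CPM with DMSO, with overlapping groups (log2 fold change -0.24, SE 0.18, adjusted p = 0.577, edgeR). Tlr2, Tlr7, Tlr8, Tlr9, Tlr13, Cd14 and Ly96 had no stretch of 50 bases in common with another annotated gene, and none of the 10 genes overlapped another gene.

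**Figure D3:**
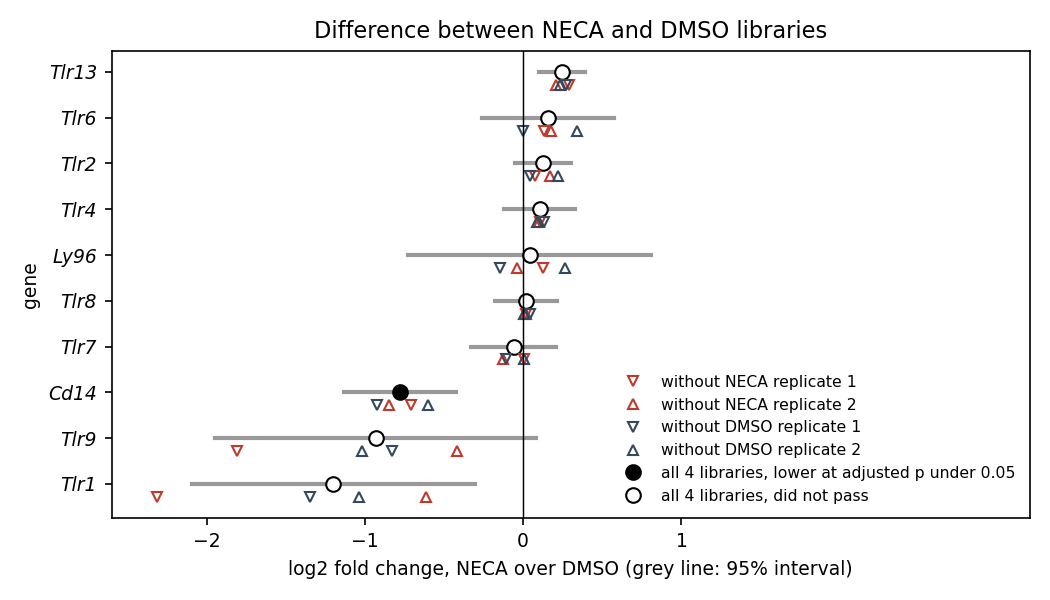
Log2 fold change, NECA over DMSO, of the 10 genes (large circles, filled where the adjusted p was under 0.05) with 95% intervals as grey lines and the values without each library as triangles. Cd14 is the filled circle, at -0.78, and the triangles of Tlr1 spread from -2.31 to -0.61.

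Among the endosomal receptors, Tlr13 (ENSMUSG00000033777, chromosome X, 106143204 to 106160493), which in mice senses a stretch of bacterial ribosomal RNA, was the most abundant in CPM. It had 115 and 122 CPM with NECA, against 101 and 99.0 CPM with DMSO, and exceeded 86.5% of the tested genes by its mean CPM. The NECA libraries lay above the DMSO libraries, and the log2 fold change of 0.25 (SE 0.07) was the highest of the 10. It did not pass (adjusted p = 0.0923, edgeR), and its fold had an interval from 1.07 to 1.31. Without NECA replicate 1 it stood at 0.29, and with library size alone as the scale at 0.17 (adjusted p = 0.242).

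Tlr7 and Tlr8, which sense RNA and lie beside each other on chromosome X (167304929 to 167330558 and 167242696 to 167264329), had the values nearest to 0 among the endosomal receptors. Tlr8 (ENSMUSG00000040522) had 36.7 CPM in each NECA library, against 36.7 and 35.8 CPM with DMSO, a log2 fold change of 0.02 (SE 0.09, adjusted p = 0.957, edgeR) with a fold interval from 0.884 to 1.16. Tlr7 (ENSMUSG00000044583) had 20.4 and 22.4 CPM with NECA, against 21.4 and 23.2 CPM with DMSO, a value of -0.06 (SE 0.12, adjusted p = 0.881, edgeR) with an interval from 0.796 to 1.16. Its groups overlapped. Those of Tlr8 were separated only by a margin that its interval of the fold does not resolve.

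Tlr9 (ENSMUSG00000045322, chromosome 9, 106222598 to 106226883), the receptor for unmethylated CpG DNA, which B cells and plasmacytoid dendritic cells are known to express strongly, was the least abundant in FPKM. It had 1.87 and 0.711 CPM with NECA, against 2.66 and 2.34 CPM with DMSO, from 34 and 11 counts with NECA and 51 and 44 counts with DMSO. Both NECA libraries were below the DMSO libraries and, as for Tlr1, NECA replicate 2 was the lower of the pair. The log2 fold change of -0.93 (SE 0.46) did not pass (adjusted p = 0.367, edgeR), and the fold had an interval from 0.260 to 1.06. It stood at -1.81 without NECA replicate 1 and at -0.42 without NECA replicate 2.

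Tlr1, Tlr9 and the summed B cell, erythroid and conventional dendritic cell markers were each lowest in NECA replicate 2 and next lowest in NECA replicate 1. The sums of the macrophage and monocyte markers and of the basophil, mast cell and eosinophil markers had the same order. So did that of the megakaryocyte and platelet markers (5.05 and 4.72 CPM with NECA, against 8.67 and 6.21 CPM with DMSO). The sums of the T and NK cell and of the plasmacytoid dendritic cell markers did not. Over all genes tested, 24.3% had both NECA libraries below both DMSO libraries, and the share with this exact order was not computed. The 12 B cell markers all had log2 fold changes below 0, with a median of -1.64, and 10 were lower at an unadjusted p under 0.05 in edgeR. Only the adaptor Blnk passed (-2.43, adjusted p = 0.0479). Leaving out either DMSO library ended that call (adjusted p = 0.114 and 0.217), as did DESeq2 (adjusted p = 0.300) and median-ratio scaling (adjusted p = 0.0556). Cd79a, part of the B cell receptor, had 19.0 and 6.33 CPM with NECA, against 27.5 and 31.5 CPM with DMSO (-1.20, adjusted p = 0.0915). The median of the B cell markers moved to -4.23 when NECA replicate 1 was left out and to -0.84 when NECA replicate 2 was. The erythroid markers had a median of -1.92, with 0 of 9 that passed in edgeR or DESeq2 (8 lower at an unadjusted p under 0.05). Of the 6 tested conventional dendritic cell markers, with a median of -0.79, 1 was lower, the transcription factor Irf8 (-1.34, adjusted p = 0.0423), and leaving out either DMSO library ended that call (adjusted p = 0.180 and 0.139), as did median-ratio scaling (adjusted p = 0.0511). In that list 5 of the 6 tested genes were below 0 and Clec9a was above it (0.20, adjusted p = 0.834, edgeR). The other 4 of the 10 conventional dendritic cell markers were too low to test. Of the 6 tested T and NK cell markers 0 passed in edgeR or DESeq2 (median -1.52, 5 lower at an unadjusted p under 0.05). Of the 8 tested basophil, mast cell and eosinophil markers (median -0.80) 1 was lower, the eotaxin receptor Ccr3 (-1.81, adjusted p = 0.0142), and not when either DMSO library was left out (adjusted p = 0.0925 and 0.0655). Markers of plasmacytoid dendritic cells summed to 57.9 and 55.6 CPM with NECA, against 57.6 and 64.5 CPM with DMSO, over 8 genes, of which 6 were tested and 0 passed in edgeR or DESeq2 (1 higher and 2 lower at an unadjusted p under 0.05). Their median log2 fold change was -0.61, with 4 of the 6 below 0, and most of the sum came from Runx2 (27.0 and 29.3 CPM with NECA, against 25.8 and 29.1 CPM with DMSO) and Il3ra (18.4 and 17.9 CPM with NECA, against 13.7 and 14.8 CPM with DMSO). Siglech, a defining marker of these cells, had 4 and 0 counts with NECA and 17 and 8 counts with DMSO. The part of B cells, dendritic cells or any other of these cells in the levels of Tlr1 and Tlr9 was not tested.

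Of the 4 remaining mouse Toll-like receptor genes, only Tlr5, the flagellin receptor, was high enough to test. It had 37.7 and 33.4 CPM with NECA, against 31.6 and 31.4 CPM with DMSO (log2 fold change 0.18, adjusted p = 0.437, edgeR), without overlap. Tlr3, the receptor for double-stranded RNA, had 1 and 3 counts with NECA and 5 and 1 counts with DMSO, and Tlr12 had 6 and 2 counts with NECA and 35 and 8 counts with DMSO. Tlr11, which with Tlr12 senses profilin of parasites, was at 0 in all 4 libraries. A count of 0 gives no fold.

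Accessory proteins and relatives of the receptors held 2 of the 3 lower genes of the pathway lists. Of 13 tested genes in this group, 0 were higher, 2 were lower and 11 did not pass, with a median of -0.15. At an unadjusted p under 0.05 in edgeR, 1 was higher and 6 were lower. Ly86 (MD-1), the relative of Ly96 that partners the Tlr4 relative Cd180 on B cells and myeloid cells, had 2.25 and 0.905 CPM with NECA, against 6.01 and 5.10 CPM with DMSO. It was lower in both NECA libraries (-1.79, SE 0.38, adjusted p = 0.0442, edgeR), but leaving out either DMSO library ended the call (adjusted p = 0.187 and 0.120), as did median-ratio scaling (adjusted p = 0.0511). Its value was -2.61 without NECA replicate 1. In FPKM it had 0.274 and 0.0984 times the level of Ly96 with NECA, against 0.829 and 0.529 times with DMSO. Cd180, which overlaps Mast4 and so has uncertain counts, stood at -0.87 (adjusted p = 0.440).

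Lgmn, the endosomal protease legumain that cuts the ectodomain of Tlr9 and is abundant in macrophages, was the other lower gene. Its levels were 11.3 and 8.66 CPM with NECA, against 26.8 and 25.2 CPM with DMSO (-1.38, SE 0.15, adjusted p = 0.00131, edgeR). It passed without any 1 of the 4 libraries (adjusted p from 6.67e-13 to 0.0170). Ctss, a cathepsin with the same role, had 20.6 and 9.76 CPM with NECA, against 35.5 and 29.1 CPM with DMSO, and missed the threshold (-1.07, adjusted p = 0.0560). Without NECA replicate 1 it stood at -1.73 and without NECA replicate 2 at -0.65. It did not pass with DESeq2 (adjusted p = 0.413) or when either DMSO library was left out. Cd36, a scavenger receptor that assists the dimer of Tlr2 and Tlr6, stood at -1.31 (adjusted p = 0.164). It stood at -2.75 without NECA replicate 1 and at -0.64 without NECA replicate 2. Ctsl, a further cathepsin, whose counts are uncertain beside an antisense gene, stood at -0.44 (adjusted p = 0.199). Unc93b1, the escort that carries the endosomal receptors out of the endoplasmic reticulum, had 250 and 242 CPM with NECA, against 258 and 252 CPM with DMSO (-0.05, adjusted p = 0.725). Hsp90b1, a chaperone that Toll-like receptors need to fold, stood at -0.15 (adjusted p = 0.251) with counts uncertain beside overlapping genes, and Lbp, the LPS-binding protein, at 0.04 (adjusted p = 0.767).

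Downstream of the receptors, 1 of 24 adaptors, kinases and transcription factors was lower, 0 were higher and 23 did not pass, with a median of 0.05 that was -0.02 with library size alone as the scale. The lower one was Irf7, the interferon regulatory factor activated by Tlr7 and Tlr9 through MyD88. Irf7 had 47.0 and 45.1 CPM with NECA, against 59.6 and 60.5 CPM with DMSO, with no overlap (-0.38, SE 0.08, adjusted p = 0.0380, edgeR). The call ended when NECA replicate 2 was left out (adjusted p = 0.0756) and when either DMSO library was (adjusted p = 0.125 and 0.139). The adaptor Myd88 had 103 CPM in each NECA library, against 90.2 and 99.1 CPM with DMSO (0.12, adjusted p = 0.457), and Tirap, which bridges Tlr2 and Tlr4 to Myd88, had 120 and 121 CPM, against 105 and 111 CPM with DMSO (0.16, adjusted p = 0.254). Both overlap other genes and have uncertain counts. Ticam1 (TRIF), the adaptor of Tlr3 and of endosomal Tlr4, stood at -0.26 (adjusted p = 0.445) and Irf5 at -0.51 (adjusted p = 0.302). Leaving out NECA replicate 1 put Irf5 at -0.96 and leaving out NECA replicate 2 at -0.18, and its counts are uncertain beside Tnpo3. Tab2, which links TRAF6 to the kinase TAK1, stood at 0.11 (adjusted p = 0.411).

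None of the 12 tested negative regulators passed in edgeR or DESeq2, and their median was 0.08. Of these 12, 2 had an unadjusted p under 0.05: Dok3 stood at 0.12 (adjusted p = 0.237) and the cytokine-signalling suppressor Socs1 at -0.54 (adjusted p = 0.262). The phosphatase Inpp5d stood at 0.11 (adjusted p = 0.388) and the NF-kB inhibitor Nfkbia at 0.14 (adjusted p = 0.420). Of 25 genes that Toll-like receptor signalling is known to induce, 14 were tested and 0 passed in edgeR, against 1 higher and 0 lower in DESeq2 and 3 higher and 3 lower at an unadjusted p under 0.05 in edgeR. Their median was -0.13, and 0.01 without DMSO replicate 2. Of the untested ones, 4 had 0 counts in every library, among them Ifnb1 and Cxcl1. Tnf, the inflammatory cytokine, had 38.3 and 40.4 CPM with NECA, against 35.2 and 33.1 CPM with DMSO (0.20, adjusted p = 0.318). Il1b had 29.0 and 32.2 CPM with NECA, against 31.9 and 36.8 CPM with DMSO (-0.17, adjusted p = 0.508). Lcn2, a siderophore-binding granule protein, had 9384 and 9015 CPM with NECA, against 8224 and 8320 CPM with DMSO (0.15, adjusted p = 0.0560), and passed with DESeq2 (adjusted p = 0.0190) and without either NECA library (adjusted p = 0.0419 and 0.00116). It did not pass with library size alone (0.08, adjusted p = 0.275) or when either DMSO library was left out (adjusted p = 0.20 and 0.122). Ccl3, a chemokine, stood at -1.05 (adjusted p = 0.185) with 3.68 and 1.42 CPM with NECA, against 5.12 and 5.63 CPM with DMSO. Its value was -1.91 when NECA replicate 1 was left out and -0.55 when NECA replicate 2 was. The chemokine Ccl5 had 2 and 1 counts with NECA and 13 and 17 counts with DMSO, with no overlap. It did not pass (log2 fold change -3.06, adjusted p = 0.107, edgeR). Icam1, an adhesion molecule with counts uncertain beside an antisense gene, stood at -0.78 (adjusted p = 0.172).

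**Figure D4:**
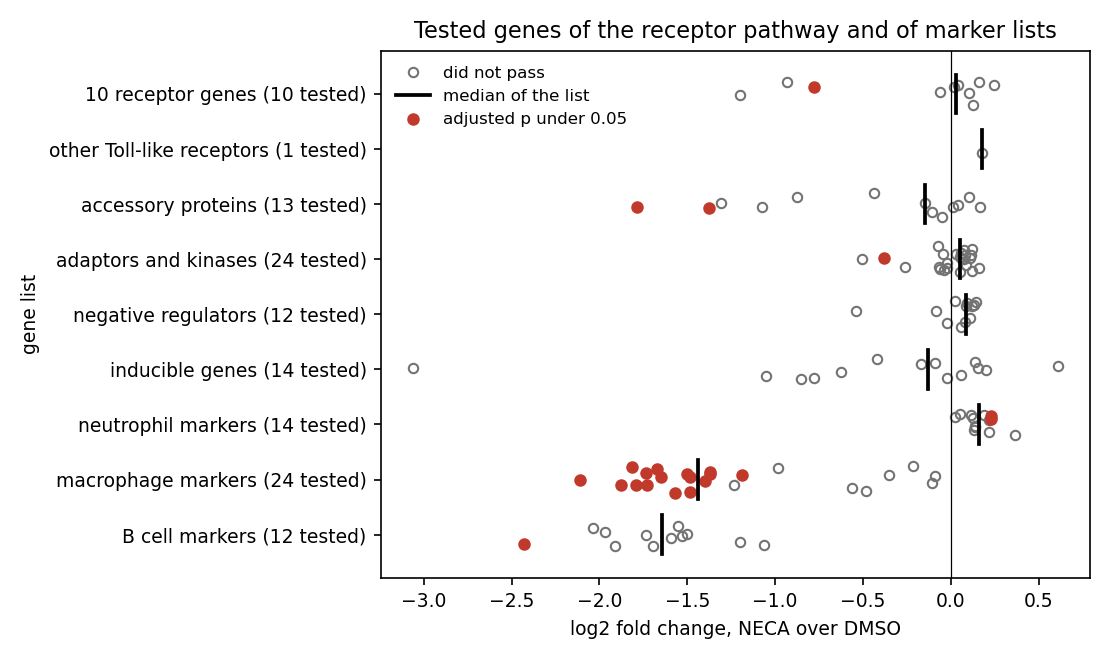
Log2 fold change, NECA over DMSO, of every tested gene in the 10 receptor genes, 5 lists of the pathway and 3 marker lists, with filled circles at adjusted p under 0.05 and a black bar at each median. The medians of the receptor and pathway genes run from -0.15 to 0.18, with 4 filled circles (Cd14, Ly86, Lgmn and Irf7). The lowest of these genes is Ccl5, at -3.06. The 24 macrophage and monocyte markers lie mostly between -1 and -2.

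The genes whose profile was nearest to that of Cd14 over the 4 libraries, by the distance between centred log2 CPM values, were Fos, Marcks, Ifi30, mt-Nd1 and Rpl3, among 5656 other genes that averaged 20 CPM or more. Fos, a subunit of AP-1, was nearest (distance 0.176), with 80.3 and 74.1 CPM with NECA, against 115 and 142 CPM with DMSO (-0.73, adjusted p = 0.00359, edgeR). Like Cd14 it was highest in DMSO replicate 2. Marcks, a membrane-bound substrate of protein kinase C (-0.59), Ifi30, a lysosomal thiol reductase (-0.58), mt-Nd1, a subunit of mitochondrial complex I (-0.65), and Rpl3, a ribosomal protein (-0.51), were also lower, with adjusted p from 0.00303 to 0.0283. Leaving out DMSO replicate 2 ended the calls of Marcks, Ifi30 and Rpl3 (adjusted p from 0.0505 to 0.175). Counts of Rpl3 and Ifi30 are uncertain beside a pseudogene and an overlapping gene. With 4 points, likeness of profile is a description only. These genes were picked for likeness to Cd14 in the same libraries, so their lower values with NECA follow from that choice. They add no support to the call of Cd14.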

How the data were processed

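The deposited tables hold, per the file headers, a raw read count and an FPKM value for each gene in each of the 4 libraries, made from amplified full-length cDNA and read in pairs, per the labels' protocols. Per the submitters' processing notes, the tools were HISAT, StringTie and edgeR, without versions, and the builds were mm10 and GRCm38. Which counter, annotation and strand setting made the counts is not given in the sources used here. The deposited FPKM were the counts over 1 length per gene and 1 scale per library (9004 genes, largest relative departure 4.65e-09).

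Work on the deposited counts used R 4.3.3 and edgeR 4.0.16: filterByExpr (minimum count 10), TMM, then glmQLFit and glmQLFTest, NECA over DMSO, on 2 residual degrees of freedom, with Benjamini-Hochberg adjustment over all 13083 genes and a threshold of 0.05. SE is the size of the log2 fold change over the root of F, and 95% intervals rest on it. To the 2 residual degrees of freedom, tests and intervals added the prior degrees of freedom that edgeR estimates across genes. CPM use TMM-scaled library sizes. Intervals on counts cover counting error only. Symbols that had become dates were restored for 27 genes, through 54409 matched identifiers. Coordinates and shared stretches come from GENCODE M21 (GRCm38), promoters from RefSeq (GRCm38.p6). The test was checked on simulated data, and replicates were not copies (chi-square over its degrees of freedom, 5.38 for NECA and 6.78 for DMSO).

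The members and gene lists were chosen with earlier results of these data known. Named besides the members are, by rule, genes of each pathway list that passed and up to 4 more with the smallest p, up to 3 genes of each marker list with the highest level and 3 with the smallest p, and the 5 nearest profiles to the member with the smallest p. All of the pathway genes and nearest profiles this gives are in the text, and of the marker genes the ones that passed and a few others, the rest being given by their lists. Tlr3, Tlr11, Tlr12, Ifnb1, Cxcl1, Tnf, Il1b, Myd88, Unc93b1, Lbp, Cd180, Ebf1 and Siglech, and which marker genes to print, were chosen after their values were seen. So were Clec9a, Ccr2, Cx3cr1 and F13a1. Alternatives were other scalings, DESeq2 1.42.0, no filter, a replicate block and leaving out each library.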

Additional observations from a re-analysis of the deposited data

How the results depend on the processing

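Of 92 values of the 10 members recomputed under other settings, 86 kept their side of the threshold, 4 passed it newly and 2 lost it. Genes called higher and lower among all tested numbered 46 and 128, and 21 and 217 with library size alone as the scale (8.82% of calls higher, against 26.4% with TMM), 143 and 157 with DESeq2 (47.7% higher), 285 and 590 with no filter on low counts, and 123 and 298 with the replicate block. Without single libraries they ran from 8 to 227 and from 45 to 594. Of the 10 members, 0 higher and 1 lower became 1 (Tlr13) and 2 (Cd14 and Tlr1, adjusted p = 0.00245) with no filter, and ran from 0 to 1 and from 0 to 2 without single libraries. Library size alone, DESeq2, median-ratio scaling and the replicate block kept the call of Cd14 only. For the pathway lists, 0 higher and 3 lower became 1 higher with median-ratio scaling and with DESeq2, 1 and 6 with no filter and 1 and 5 with the replicate block, and ran from 0 to 1 and from 1 to 8 without single libraries. For the marker lists, 2 higher and 19 lower became 0 higher with library size alone, 5 higher with DESeq2, 9 and 50 with no filter and 8 and 37 with the replicate block, and ran from 0 to 8 and from 11 to 47 without single libraries. The causes were not tested, and when a library is left out the lone library of its group is assumed to vary like the other group. Over all genes tested, fewer were called each way when either DMSO library was left out, and more when either NECA library was. Calls that ended or appeared in those fits were thus not particular to the genes named.

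Same-numbered libraries did not deviate together (r = 0.02 across genes, which are not independent), so the numbers were not taken to pair samples, and the block raised the counts above. Depth limits Tlr1, Tlr9 and Ly96, with 11 to 121 counts per library. The median of the 10 members was -0.04 with library size alone and -0.06 without DMSO replicate 1, against 0.03.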
